A study of Mus musculus with 12 samples.

Results

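The genes followed were 10 of the BCL2 family: the anti-apoptotic members Bcl2, Bcl2l1, Mcl1, Bcl2a1b and Bcl2a1d, the effector Bak1, and the BH3-only members Bcl2l11, Bid, Bad and Bmf. They were taken by name from the pro- and anti-apoptotic genes of the family, and make up 10 of the 20696 genes with at least 1 read. All 10 had reads and all 10 passed the filter on low counts. RNA came from sorted mouse bone marrow cells that were Flk2- within the Lin-Sca-1+Kit+ gate, which holds blood stem cells and early progenitors. Each of 4 genotypes had 3 libraries, and every library carried a mouse number of its own. The genotypes were Mdmx-Tg/Pu.1-URE-/- (the double mutant), Pu.1-URE-/-, Mdmx-Tg and Wild-type. Mdmx-Tg animals carry a transgene for MDMX, the p53 inhibitor encoded by Mdm4, and Pu.1-URE-/- animals lack the upstream regulatory element (the element, below) of Spi1, the gene of the transcription factor PU.1. The double mutant carries both changes. The promoter of the transgene, the strain and the age of the animals are not given in the sources used here.

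Proteins of the BCL2 family decide whether the outer mitochondrial membrane stays closed. Anti-apoptotic members hold the effectors BAX and BAK in check, and BH3-only members release or activate those effectors after stress or loss of survival signals, so that cytochrome c leaves the mitochondrion and caspases are activated. MCL1 is needed for the survival of blood stem cells, BCL2 and BCL-XL (the product of Bcl2l1) protect stem and progenitor cells when overproduced, and p53 raises the transcription of several pro-apoptotic members.

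Both sides of the family share the BH3 motif, through which the proteins bind one another, so its core is shown here for the members. In the coding sequence of the protein-coding transcript with the most reads of each gene (GENCODE M21, GRCm38), which for Bak1 held only 3.15% of the gene's reads, a codon for leucine, then 3 codons of any kind, then a codon for glycine, serine or alanine followed by one for aspartate was searched for on the coding strand. It was found once in each of 8 transcripts and in none of the 4 Bcl2a1 paralogues searched, out of 12 transcripts. For comparison, 20.1% of the 14632 coding transcripts of 162 to 331 codons hold the same pattern, so a match is a description of the sequence and not evidence of binding. The 30 bases around each core are given 5′ to 3′, with the codon for leucine and the final pair of codons in capitals.
Bcl2, chr1:106712578-106712607, minus strand: ctgaccCTCcgccgggctGGGGATgacttc
Bcl2l1, chr2:152829700-152829729, minus strand: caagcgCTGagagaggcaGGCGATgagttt
Mcl1, chr3:95659430-95659459, plus strand: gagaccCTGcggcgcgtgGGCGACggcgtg
Bak1, chr17:27022534-27022563, minus strand: cggcagCTTgctctcatcGGAGATgatatt
Bcl2l11, chr2:128147144-128147173, plus strand: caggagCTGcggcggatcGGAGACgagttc
Bid, chr6:120897292-120897321, minus strand: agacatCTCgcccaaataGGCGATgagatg
Bad, chr19:6950786-6950815, plus strand: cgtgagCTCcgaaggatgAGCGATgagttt
Bmf, chr2:118545103-118545132, minus strand: agaaagCTTcagtgtattGCAGACcagttc
The capitals end in a glycine codon and an aspartate codon in 6 of the members shown, while Bad has a serine codon and Bmf an alanine codon in place of glycine.

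The libraries held 47231506 to 55030235 estimated reads in annotated genes. Mdm4 stood at 163 to 535 CPM (reads scaled to a common library size after TMM normalization) in the 6 transgenic libraries, against 35.8 to 93.9 CPM in the 6 others. Spi1 stood at 0.0198 to 3.48 CPM in the double mutant and 8.73 to 23.9 CPM in Pu.1-URE-/-. It stood at 3.69 to 21.6 CPM in Mdmx-Tg and 5.34 to 37.98 CPM in Wild-type. Pu.1-URE-/- thus lay within the range of Wild-type, and the lowest values were those of the double mutant. All 12 stem cell markers listed had reads in each genotype, and their summed level was 516 to 1135 CPM without the element, against 1153 to 1908 CPM with it; 6 of the 12 were called lower. Neutrophil markers (14 listed, 10 of 11 tested called higher) summed to 24370 to 95050 CPM without the element, against 7.61 to 30.2 CPM with it, although Mmp8 and Mmp9 had no read in either genotype without it. Granulocyte-monocyte progenitor genes (11 listed, Azu1 without reads) summed to 10890 to 56150 CPM, against 883 to 2573 CPM. Monocyte and macrophage markers (12 listed, Adgre1 at 0 in both genotypes without the element) summed to 786 to 3325 CPM, against 90.8 to 539 CPM, but of 10 tested 6 had a log2 change below 0 for element loss, with 2 called higher and 2 lower. T and NK cell markers (12 listed, Trac at 0 in every genotype) summed to 1566 to 3964 CPM, against 107 to 320 CPM, with 3 of 8 tested below 0, 2 called higher and 1 lower. Mast cell and basophil markers were at 352.1 to 818 CPM, against 136 to 290 CPM, with 5 of 8 tested below 0, 1 called higher and 1 lower. The sums of these 3 lists therefore do not stand for most of their genes. Of all genes tested, 8.08% were called higher for element loss and 3.81% lower. Erythroid markers were at 1159 to 2975 CPM, against 1854 to 5854 CPM, and megakaryocyte markers at 14.3 to 74.0 CPM, against 75.4 to 189 CPM. B and plasma cell markers (12 listed, Pax5 at 0 in both genotypes without the element) summed to 703 to 3741 CPM, against 721 to 29230 CPM. Immunoglobulin genes took 0.131% to 4.13% of the reads without the element, against 0.427% to 31.2% with it, and 31.2% in Wild-type 1 alone. The part of these marker differences in the results on the BCL2 family was not tested. Y-linked genes were at 200 to 222 CPM in 2 double-mutant libraries and at 215 CPM in 1 Wild-type library, and at 5.70 CPM or less in the others. In such bulk samples, fewer cells of a type and less RNA per cell cannot be told apart.

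Ranked by length-normalized abundance (TPM, the submitted estimate per transcript summed over each gene), the BH3-only gene Bid was highest and the rest followed over almost 3 orders of magnitude. Bid, whose product links death receptors to mitochondria once caspase-8 has cut it, averaged 71.8 TPM over the 12 libraries (39.1 to 93.4 TPM) and lay above every other member in all 12. Bad, a BH3-only gene whose product is silenced by survival-factor kinases, averaged 38.1 TPM (9.75 to 58.75 TPM). Mcl1, which encodes a short-lived anti-apoptotic protein, averaged 23.0 TPM (12.9 to 38.6 TPM). Bad lay above Mcl1 in 10 libraries, the exceptions being Mdmx-Tg 1 and Mdmx-Tg 2. Bcl2l1 averaged 10.7 TPM and Bcl2 5.41 TPM. Below these came Bcl2l11, the gene of the BH3-only activator BIM, at 2.49 TPM, and Bak1 at 1.59 TPM. Bcl2a1b at 0.797 TPM, Bcl2a1d at 0.128 TPM and Bmf at 0.0907 TPM were near the floor, each with libraries at 0. The other effector, Bax, which is no member of the list, averaged 144 TPM and was thus far more abundant than Bak1 in this measure. TPM shares a fixed total, and in Wild-type 1, the library richest in immunoglobulin reads, Bid had its lowest TPM, so levels of members are compared between genotypes in CPM, and values in TPM below are descriptions that include Wild-type 1.

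Among the 5 anti-apoptotic members, Mcl1 supplied the largest part of the TPM in most libraries and Bcl2l1 in a few. Mcl1 made up 56.8% ± 8.99 of the anti-apoptotic TPM in the double mutant, 42.8% ± 11.1 in Pu.1-URE-/-, 65.8% ± 1.46 in Mdmx-Tg and 64.3% ± 0.314 in Wild-type (SD, n = 3 each). Bcl2l1 made up 22.4% ± 9.76 in the double mutant, 47.2% ± 11.4 in Pu.1-URE-/-, 16.0% ± 6.21 in Mdmx-Tg and 21.6% ± 2.35 in Wild-type. Bcl2l1 exceeded Mcl1 in 2 of the 12 libraries, Pu.1-URE-/- 1 and Pu.1-URE-/- 3. Bcl2 made up 19.7% ± 5.53 in the double mutant, 9.29% ± 0.667 in Pu.1-URE-/-, 14.2% ± 3.87 in Mdmx-Tg and 10.55% ± 1.625 in Wild-type. Bcl2 exceeded Bcl2l1 in 4 libraries, and all 4 were transgenic (Mdmx-Tg/Pu.1-URE-/- 2 and 3, Mdmx-Tg 1 and 2). These shares are a description and were not tested.

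**Figure D1:**
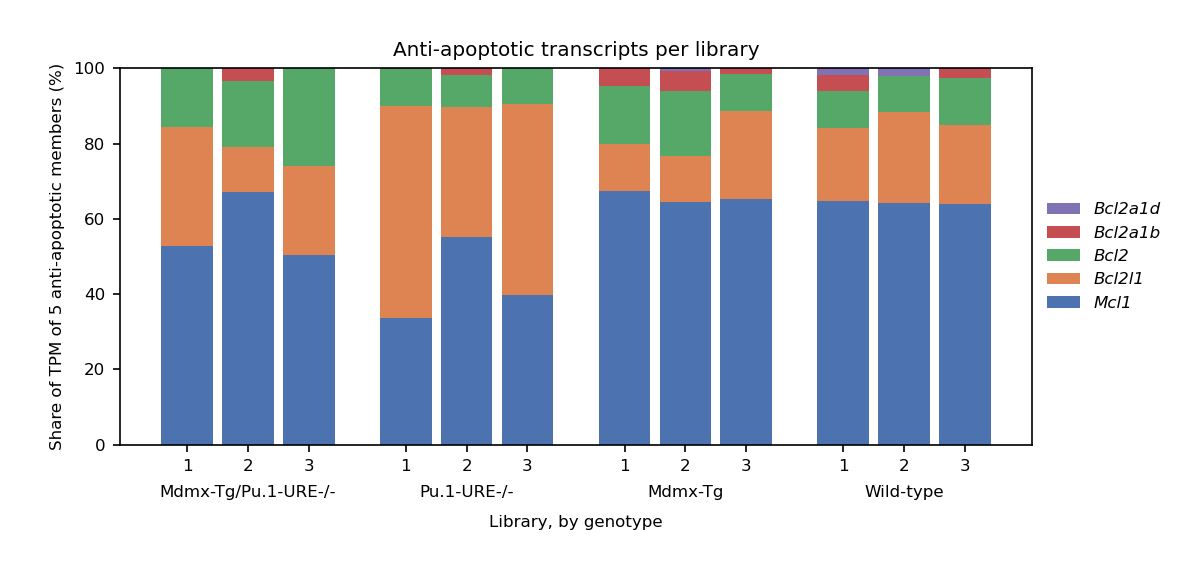
Share of the summed TPM of 5 anti-apoptotic members held by each of them (y axis, percent, from 0 to 100) in every library (x axis, grouped by genotype). Mcl1 (bottom) held 64.0% to 64.6% in the Wild-type libraries and 33.6% to 55.2% in Pu.1-URE-/-, where Bcl2l1 held 34.5% to 56.5%.

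Tested across all 15012 genes by edgeR's quasi-likelihood test, no member passed an adjusted p of 0.05 in any of the 8 contrasts. The contrasts were Pu.1-URE-/- against Wild-type, where 4.71% of all genes were called, Mdmx-Tg against Wild-type (0%), the double mutant against Pu.1-URE-/- (0%), against Mdmx-Tg (2.32%) and against Wild-type (3.34%), element loss averaged over transgene status (11.9%, with 8.08% higher and 3.81% lower), the transgene averaged over element status (0%) and the interaction of both (0%). At an unadjusted p under 0.05, the number of members in the same order was 2, 2, 2, 1, 2, 3, 3 and 0 of 10, where 19.8%, 10.5%, 10.7%, 16.9%, 18.5%, 26.9%, 16.3% and 5.8% of all genes stood. Bcl2a1d, which has reads only in libraries with the element, is among the members counted for Pu.1-URE-/- and the double mutant against Wild-type and for element loss. With the Bcl2a1 paralogues summed, the counts in these contrasts were 1, 1 and 2 of 9. limma-voom also called none, and DESeq2 called Bcl2l1 in Pu.1-URE-/- against Wild-type, Mcl1 for element loss, and Bcl2 and Bcl2l11 for the transgene, where DESeq2 called 12.5%, 20.1% and 6.77% of all genes in the same order. The differences below are therefore values that did not pass the edgeR test, and the intervals of the main ones are given. Since no member was called, no genes were sought whose pattern over the libraries resembled one.

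Bcl2, the founding anti-apoptotic gene, was higher in the transgenic libraries but did not pass the test. The double-mutant libraries had 41.1, 39.2 and 55.6 CPM and the Mdmx-Tg libraries 41.7, 57.5 and 27.3 CPM, against 23.6, 22.0 and 27.75 CPM in Pu.1-URE-/- and 28.6, 25.2 and 25.2 CPM in Wild-type. Of the 6 transgenic libraries, 5 lay above all 6 others, and Mdmx-Tg 3 lay among them. The mean was 43.7 ± 11.2 CPM with the transgene and 25.4 ± 2.485 CPM without it (SD, n = 6 each). The log2 change for the transgene was 0.78 ± 0.19 (SE), a 1.72-fold difference with a 95% interval of 0.36 to 1.21 on the log2 scale and an adjusted p of 0.139 in edgeR. The double mutant lay above Pu.1-URE-/- (log2 change 0.89, adjusted p 0.406) and above Wild-type (0.78, adjusted p 0.160) without overlap, while Mdmx-Tg against Wild-type overlapped (0.68, adjusted p 0.441). DESeq2 called the transgene difference (adjusted p 0.0114), and so did edgeR without Mdmx-Tg 3 (0.88, adjusted p 0.033). That library also had the least Mdm4 of its genotype, 163 CPM. Double-mutant library 2 had 163 CPM of Mdm4 as well, with Bcl2 at 39.2 CPM. The part of the Mdm4 level in the difference was not tested. The mouse numbers fall into 3 runs of nearby numbers, and the transgenic mean was 41.4 against 26.1 CPM in the first run, 57.5 against 24.9 CPM in the second and 40.7 against 25.2 CPM in the third, without overlap in any run. The second run holds only Mdmx-Tg 2, Pu.1-URE-/- 2 and Pu.1-URE-/- 3, so transgene and element loss cannot be told apart in it, for Bcl2 or any other member. The third run holds Wild-type 2 and 3, Mdmx-Tg 3 and double-mutant libraries 2 and 3, so the 2 changes are partly mixed there for every member. In that run Bcl2 was also at 47.4 CPM without the element against 25.9 CPM with it, without overlap. Mdmx-Tg 3 had 27.3 CPM there, against 25.2 CPM in each Wild-type library. For element loss the log2 change of Bcl2 was -0.0025 (95% interval -0.43 to 0.42), with a sign that turned under several settings.

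Bcl2l1, whose main product BCL-XL closes mitochondria to cell death in red cell and platelet precursors, was highest in Pu.1-URE-/-. Its level was 28.1, 9.19 and 17.2 CPM in the double mutant, 48.8, 30.2 and 51.3 CPM in Pu.1-URE-/-, 13.1, 14.5 and 19.7 CPM in Mdmx-Tg, while Wild-type had 19.99, 19.8 and 13.7 CPM. All 3 Pu.1-URE-/- libraries lay above the 9 others, whose genotypes overlapped one another. Pu.1-URE-/- stood 2.44-fold above Wild-type (log2 change 1.28 ± 0.40 SE, 95% interval 0.41 to 2.16, edgeR adjusted p 0.0991), and the double mutant 2.39-fold below Pu.1-URE-/- (log2 change -1.26 ± 0.40, adjusted p 0.406). The double mutant did not separate from Wild-type (0.02, 95% interval -0.84 to 0.89). The interaction of transgene and element loss was -1.08 ± 0.56 (95% interval -2.31 to 0.14, adjusted p 0.871), so a different effect of element loss in the 2 transgene states was not established. Pu.1-URE-/- against Wild-type was called by DESeq2 (adjusted p 0.0266) and by edgeR fitted to these 2 genotypes alone (0.0444). Averaged over transgene status, element loss gave 0.74 ± 0.28 (adjusted p 0.112), which was called without double-mutant library 2 (0.90, adjusted p 0.0385). In that average the means were 30.8 ± 16.8 CPM without the element and 16.8 ± 3.36 CPM with it (SD, n = 6 each). The direction held in the first run of mouse numbers (38.4 against 16.6 CPM) but not in the third, which holds no Pu.1-URE-/- library (13.2 against 17.75 CPM). The second run, where the transgene cannot be told apart from element loss, had 40.7 against 14.5 CPM (2 libraries against 1). The erythroid and megakaryocyte marker sums given above were lower in Pu.1-URE-/- than in Wild-type, with erythroid markers at 1658 to 2975 CPM against 3975 to 5854 CPM and megakaryocyte markers at 14.3 to 74.0 CPM against 77.6 to 188.5 CPM, and their part in the Bcl2l1 values was not tested.

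Mcl1 was lower without the element, again short of the threshold. The double mutant had 70.7, 78.8 and 52.5 CPM and Pu.1-URE-/- 43.8, 68.5 and 62.0 CPM, against 111, 108 and 88.65 CPM in Mdmx-Tg, while Wild-type had 95.3, 79.8 and 63.45 CPM. The 3 double-mutant libraries lay below the 3 Mdmx-Tg libraries, while Pu.1-URE-/- overlapped Wild-type through Wild-type 3. Means were 62.7 ± 12.8 CPM without the element and 91.05 ± 17.9 CPM with it (SD, n = 6 each). Element loss gave a log2 change of -0.53 ± 0.17 (SE), 1.44-fold lower, with a 95% interval of -0.90 to -0.16 and an edgeR adjusted p of 0.0643. The call was sensitive to small changes of the fit: Mcl1 passed with DESeq2 (0.0102), with relative log expression factors (0.0465), with a block by run of mouse numbers (0.0454), with immunoglobulin genes left out (0.0469), without Wild-type 3 (0.0451) and without Pu.1-URE-/- 2 (0.0461), and its highest adjusted p over the alternatives was 0.235. By run of mouse numbers, Mcl1 was at 57.3 against 103.2 CPM in the first and 65.6 against 77.3 CPM in the third, with overlap in the third. In the second, with the transgene confounded as above, it was at 65.2 against 108.0 CPM (2 libraries against 1). The double mutant against Mdmx-Tg gave -0.61 ± 0.24 (adjusted p 0.232). For the transgene the change was 0.29 (95% interval -0.08 to 0.66, adjusted p 0.427), with Mdmx-Tg the highest of the 4 genotypes at 102.6 ± 12.2 CPM. Nearly all Mcl1 reads, 99.96% to 100% per library, were assigned to the 3-exon coding transcript Mcl1-201, which carries the BH3 core printed above.

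**Figure D2:**
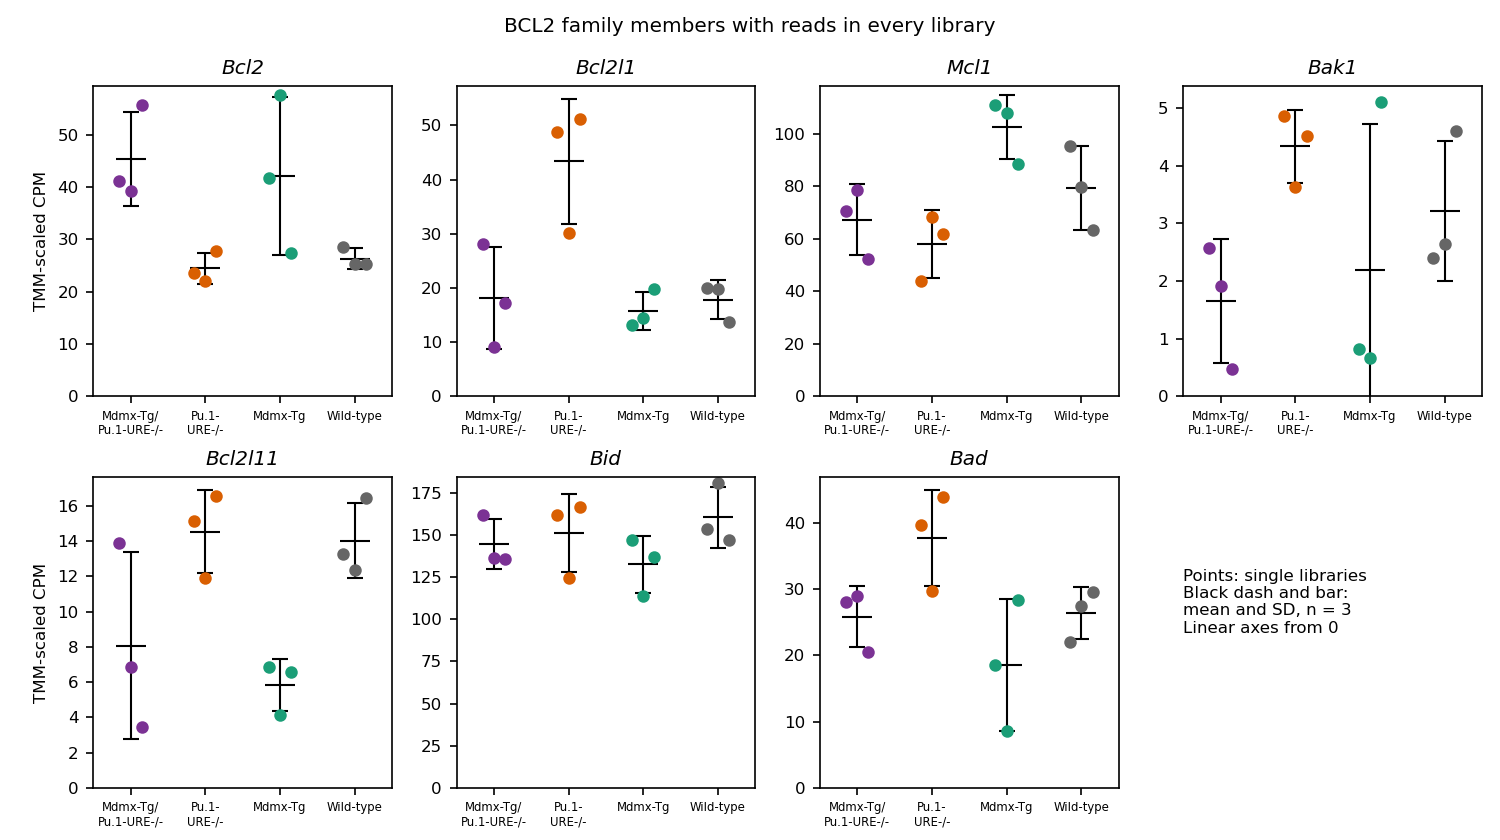
TMM-scaled CPM (y axes, linear, from 0) of the 7 members with reads in every library, by genotype (x axes); points are libraries, and the black dash and bar give mean and SD of 3, with the bar cut at 0 for Bak1. Bcl2 was at 27.3 to 57.5 CPM in the transgenic libraries and 22.0 to 28.6 CPM in the others, and Bcl2l1 was at 30.2 to 51.3 CPM in Pu.1-URE-/- and 9.19 to 28.1 CPM elsewhere.

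The Bcl2a1 genes, copies of one anti-apoptotic gene that lie on chromosome 9 and are known as targets of NF-kappaB in myeloid cells, were barely expressed. Their sequences are shown because the copies differ so little that reads can hardly be told apart. The first 100 coding bases of each follow (GENCODE M21, GRCm38), with the 7 positions at which the 3 copies differ in capitals.
Bcl2a1b, chr9:89199360-89199459, plus strand: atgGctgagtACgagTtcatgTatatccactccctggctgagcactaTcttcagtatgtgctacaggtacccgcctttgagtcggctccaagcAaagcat
Bcl2a1d, chr9:88731620-88731719, minus strand: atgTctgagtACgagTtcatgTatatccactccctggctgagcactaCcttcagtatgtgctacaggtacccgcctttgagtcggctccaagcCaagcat
Bcl2a1a, chr9:88957051-88957150, plus strand: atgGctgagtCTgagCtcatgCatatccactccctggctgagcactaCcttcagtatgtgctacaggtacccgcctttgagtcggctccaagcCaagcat
Over 516 coding bases Bcl2a1b and Bcl2a1d differ at 6, an identity of 98.8%, with an identical run of 217 bases, so the estimated split of reads between them is uncertain. Bcl2a1b had 0, 39 and 0 reads in the double mutant and 2, 24 and 0 in Pu.1-URE-/-, against 73, 82 and 22 in Mdmx-Tg and 52, 0 and 32 in Wild-type. Bcl2a1d had no read in the 6 libraries without the element, and 0, 14 and 0 reads in Mdmx-Tg and 23, 28 and 0 in Wild-type. Bcl2a1d passed the filter on low counts only through the 3 libraries with reads, all of them with the element, so its fold and test for element loss are not read as results. The gene still enters the counts of members at an unadjusted p above and the members' medians below. Summed over the Bcl2a1 copies, which removes the question of the split, reads were 0, 39 and 0 in the double mutant and 2, 24 and 0 in Pu.1-URE-/-, against 73, 96 and 28 in Mdmx-Tg and 88, 28 and 33 in Wild-type. Of the 6 libraries without the element, 5 lay below all 6 with it, and double-mutant library 2 lay among them. The sum, too, passed the filter on low counts only because of the libraries with the element. Its fold and test for element loss are therefore not given, and its reads are a description.

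Bak1, the gene of the effector BAK, was low and the most variable of the 7 members with reads in every library. Its level was 2.57, 1.92 and 0.476 CPM in the double mutant, 4.87, 3.63 and 4.51 CPM in Pu.1-URE-/-, 0.824, 0.667 and 5.11 CPM in Mdmx-Tg, while Wild-type had 2.39, 2.65 and 4.60 CPM. The double mutant lay below Pu.1-URE-/- without overlap (log2 change -1.39 ± 0.97 SE, edgeR adjusted p 0.643), and Mdmx-Tg spread over nearly the whole range of the other genotypes. Averaged over element status, the transgene gave -0.97 (95% interval -2.45 to 0.52, adjusted p 0.525). Behind these values stand only 24 to 301 reads per library, of which 84.7% to 100% were assigned to transcripts annotated for nonsense-mediated decay. The 6-exon coding transcript Bak1-202, which holds the BH3 core above, had 0 to 16.1 reads. It had none in the double mutant and 0 to 3.06 in Mdmx-Tg, against 4.55 to 10.8 in Pu.1-URE-/- and 3.05 to 16.1 in Wild-type. Of the decay transcripts, Bak1-204 took all reads of the double mutant, 24 to 128 per library, and 34 to 282 in Mdmx-Tg, against 85.6 to 201.6 in Pu.1-URE-/- and 0 to 186 in Wild-type. Bak1-201 had no read in the 6 transgenic libraries, against 0 to 133 reads in Pu.1-URE-/- and 54.2 to 143 in Wild-type. Both span nearly the same interval as Bak1-202, so this assignment is an estimate. It was singled out after its values were seen, and the genotype difference in it was not tested.

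**Figure D3:**
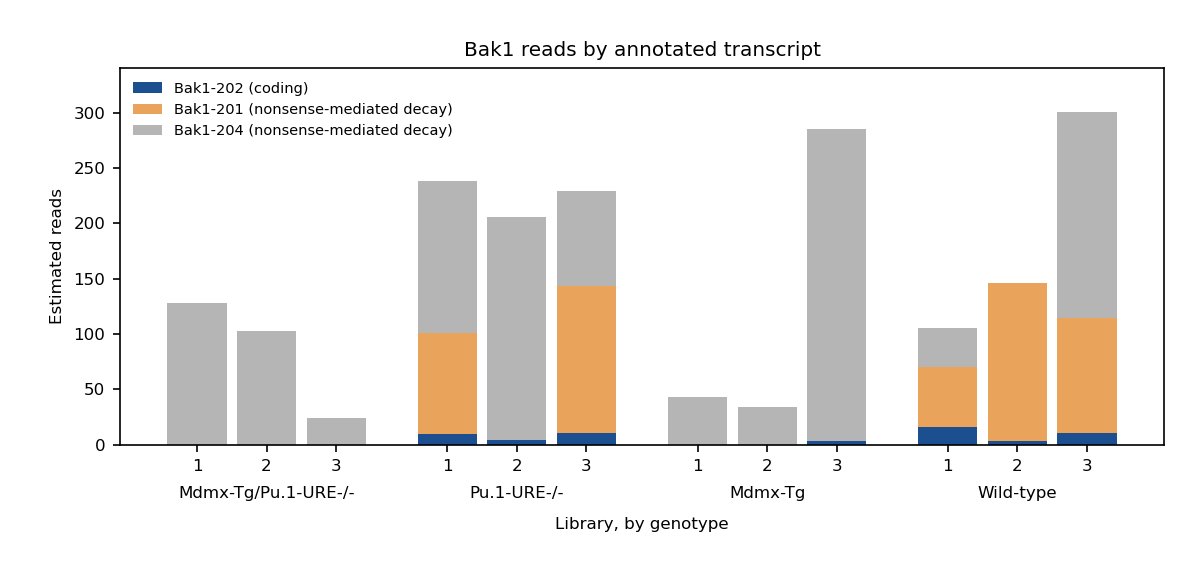
Estimated reads of Bak1 (y axis, from 0) in each library (x axis, grouped by genotype), stacked by annotated transcript. Bak1-201 (orange) has reads in 5 of the 6 libraries without the transgene and in none of the 6 with it, and the coding Bak1-202 (blue) reaches at most 16.1 reads.

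Bcl2l11 was lower in the transgenic libraries but did not pass the test. The double mutant had 13.9, 6.85 and 3.47 CPM and Mdmx-Tg 6.86, 4.16 and 6.55 CPM, against 15.1, 11.9 and 16.5 CPM in Pu.1-URE-/- and 13.3, 12.4 and 16.4 CPM in Wild-type. Of the 6 transgenic libraries, 5 lay below all 6 others, and double-mutant library 1 lay among them. The mean was 6.965 ± 3.70 CPM with the transgene and 14.3 ± 2.04 CPM without it (SD, n = 6 each). The log2 change was -1.05 ± 0.35 (SE), 2.08-fold lower, with a 95% interval of -1.82 to -0.28 and an edgeR adjusted p of 0.187, and DESeq2 called it (0.0408). Mdmx-Tg lay below Wild-type without overlap (log2 change -1.26, 2.40-fold lower, adjusted p 0.427), while the double mutant overlapped Pu.1-URE-/- (-0.85, adjusted p 0.560). By run of mouse numbers the groups overlapped in the first (10.4 against 14.2 CPM). They did not overlap in the third (5.62 against 14.4 CPM, partly mixed with element loss) or the second (4.16 against 14.2 CPM, 1 library against 2, confounded with element loss). The main coding transcript Bcl2l11-205 took 48.3% to 100% of the reads of a library.

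Bid was the steadiest member. It stood at 162, 136 and 136 CPM in the double mutant, 162, 124 and 167 CPM in Pu.1-URE-/-, 147, 114 and 137 CPM in Mdmx-Tg, while Wild-type had 153.5, 181 and 147 CPM, and all 4 genotypes overlapped. The SD of its log2 CPM within genotypes was 0.18, and 3.00% of all genes tested had a smaller one, against a median of 0.62 over all genes. Mcl1 (0.28) and Bcl2 (0.32) were also below that median, and Bak1 (1.04) above it. The 95% interval of the log2 change of Bid was -0.26 to 0.30 for element loss and -0.45 to 0.11 for the transgene, the narrowest of the 10 members. Between 9.44% and 25.0% of Bid reads were assigned to the decay transcript Bid-204.

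Bad stood at 28.1, 28.9 and 20.5 CPM in the double mutant, 39.6, 29.6 and 43.8 CPM in Pu.1-URE-/-, 18.5, 8.555 and 28.4 CPM in Mdmx-Tg, while Wild-type had 22.0, 27.4 and 29.6 CPM. Pu.1-URE-/- lay above the double mutant and above Wild-type without overlap, in the case of Wild-type only narrowly (lowest 29.61 CPM, highest 29.57 CPM). The log2 change was 0.50 (95% interval -0.09 to 1.08, edgeR adjusted p 0.264) for element loss and -0.53 (95% interval -1.11 to 0.06, adjusted p 0.360) for the transgene. Bmf, whose product senses detachment and cytoskeletal stress, had 85, 62 and 0 reads in the double mutant, 28, 4 and 0 in Pu.1-URE-/-, 0, 0 and 28 in Mdmx-Tg, and 19, 30 and 0 in Wild-type. Every genotype held a library without Bmf reads, and a count of 0 allows up to 3 reads, so no fold is given.

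**Figure D4:**
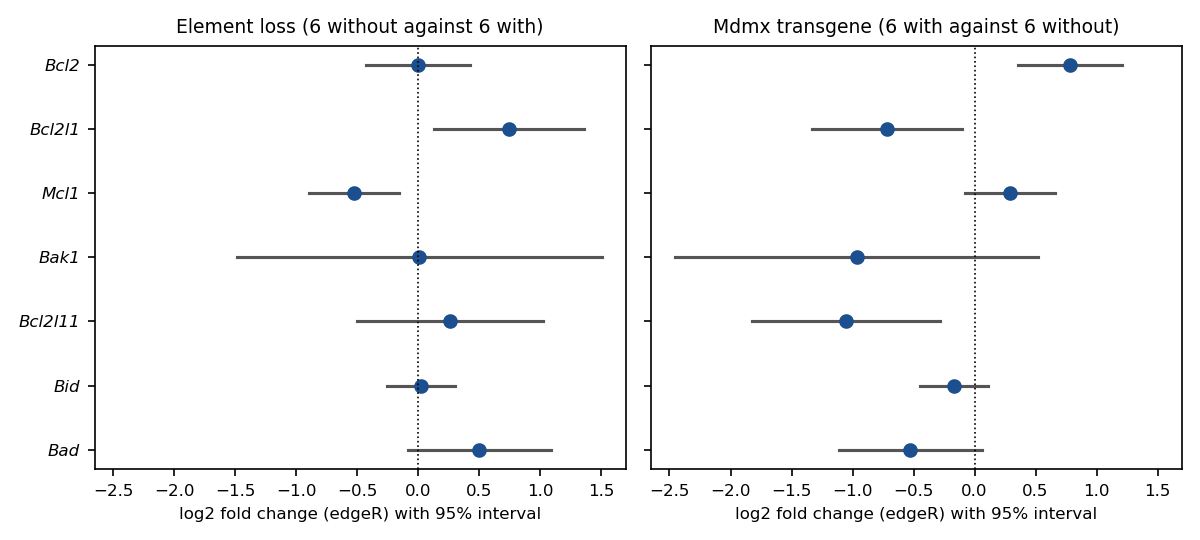
log2 fold change (x axes, edgeR) of the 7 members with reads in every library for element loss (left, 6 libraries without against 6 with) and for the Mdmx transgene (right, 6 with against 6 without); points are estimates and lines 95% intervals. For element loss Mcl1 is at -0.53 and Bcl2l1 at 0.74, for the transgene Bcl2 is at 0.78 and Bcl2l11 at -1.05, and none passed the adjusted threshold.

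Counted over the members, groups without overlap were no more common than among all genes in 4 of 5 pairs of genotypes. In Pu.1-URE-/- against Wild-type it was 2 of 10 members (Bcl2l1 and Bad, both higher), against 29.7% of all genes. In Mdmx-Tg against Wild-type it was 1 (Bcl2l11), against 13.7%, in the double mutant against Mdmx-Tg 1 (Mcl1), against 19.2%, and in the double mutant against Wild-type 1 (Bcl2), against 26%. In the double mutant against Pu.1-URE-/- it was 4 (Bcl2 higher, Bcl2l1, Bak1 and Bad lower), against 18.8% (9.89% higher and 8.95% lower). No member separated 6 libraries from 6 for element loss (6.78% of all genes) or for the transgene (1.13%). The members' median log2 change was -0.39 in Mdmx-Tg against Wild-type, -0.35 for the transgene on average and -0.19 in the double mutant against Wild-type. It lay between -0.10 and 0.11 in Pu.1-URE-/- against Wild-type, for element loss and in both remaining comparisons of the double mutant, with Bcl2a1d at the bound that a floor of 3 reads over the group gives, or left out where both groups had no read. The members' medians include fitted changes of Bcl2a1b and Bmf, which had libraries at 0. Those of Mdmx-Tg against Wild-type and of the transgene also include the fitted change of Bcl2a1d (14 against 51 reads). The median of all genes tested was between -0.026 and 0.035. The comparisons share libraries, so these counts are not independent of one another.

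The rest of the family and its surroundings were read from lists that leave the 10 members out. Of 16 other BCL2 family genes 12 were tested, and edgeR called none in any contrast, with 0 to 4 of 12 at an unadjusted p under 0.05. The count was 4 in the double mutant against Wild-type and for the transgene, where 18.5% and 16.3% of all genes stood. Bax, the effector, was at 76.7 ± 12.8 CPM in the double mutant, 104.4 ± 7.70 CPM in Pu.1-URE-/-, 84.3 ± 23.3 CPM in Mdmx-Tg and 110.1 ± 13.6 CPM in Wild-type (SD, n = 3 each). The double mutant lay below Pu.1-URE-/- and Wild-type without overlap. The log2 change of Bax for the transgene was -0.42 (95% interval -0.76 to -0.07, adjusted p 0.230). Bok, a divergent effector, was at 5.27, 17.8 and 21.7 CPM in the double mutant, 2.35, 2.94 and 7.865 CPM in Pu.1-URE-/-, 0.0766, 2.83 and 0.0359 CPM in Mdmx-Tg, while Wild-type had 0.519, 0.526 and 2.74 CPM. The double mutant lay above both genotypes with the element. The log2 change of Bok for element loss was 2.86 ± 1.01 (SE, edgeR adjusted p 0.0921), and it was called by DESeq2 (0.00897), by limma-voom (0.0266), with a block by run of mouse numbers (0.0477) and without Mdmx-Tg 2 (4.90, adjusted p 0.00561). Bik, a BH3-only gene, had no read in the 6 transgenic libraries and 89 reads in 5 of the 6 others. It passed the filter on low counts only through libraries without the transgene, so its fold and test for the transgene are not given. It remains among the 12 genes tested and counted above. Bbc3, the p53 target that encodes PUMA, was at 2.89 ± 1.93 CPM in the double mutant, 2.63 ± 1.41 CPM in Pu.1-URE-/-, 2.72 ± 2.59 CPM in Mdmx-Tg and 2.16 ± 0.812 CPM in Wild-type, with full overlap.

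Downstream of the mitochondrion, 2 of the 19 apoptosome and caspase genes listed were called higher for element loss, against 8.08% of all genes. Apaf1, which builds the apoptosome, was at 46.9 ± 11.1 CPM without the element and 20.7 ± 7.25 CPM with it (SD, n = 6 each), a log2 change of 1.21 ± 0.22 (SE, edgeR adjusted p 0.00539). Birc5, the gene of survivin, whose transcription follows cell division, was at 315 ± 78.2 CPM and 192 ± 43.2 CPM (0.71 ± 0.17, adjusted p 0.0215), without overlap. The Apaf1 call did not hold with an offset for transcript length (0.61, adjusted p 0.275), and in TPM, which takes length into account, Apaf1 averaged 9.07 in the double mutant, 10.6 in Pu.1-URE-/-, 9.19 in Mdmx-Tg and 3.05 in Wild-type. The Birc5 call ended without Wild-type 1 or 3, Mdmx-Tg 1, Pu.1-URE-/- 1 or 3, or double-mutant library 1, each left out alone (adjusted p 0.0511 to 0.0718), and without Wild-type 1, Mdmx-Tg 2 and double-mutant library 3 together (0.137). Apaf1 was also called higher in Pu.1-URE-/- against Wild-type (1.53, adjusted p 0.0187) and in the double mutant against Wild-type (1.497, adjusted p 0.0278), but both of these calls ended when any 1 of the Wild-type libraries was left out (adjusted p 0.0543 to 0.131), and also without Pu.1-URE-/- 1 or 3 for the first, and Pu.1-URE-/- 3 or any double-mutant library for the second. The list's median log2 change for element loss was 0.10. Of 10 death receptor genes 9 were tested and of 16 regulators of BCL2 family proteins 15, and edgeR called none of either in the 8 contrasts. At an unadjusted p under 0.05 stood 0 to 3 of 9 and 0 to 6 of 15, against 5.8% to 26.9% of all genes by contrast. For the transgene, 6 of the 15 regulators and 3 of the 9 death receptor genes stood at an unadjusted p under 0.05, against 16.3% of all genes. Among these regulators, named after their values were seen, Usp9x, whose product removes ubiquitin from MCL1, had a log2 change of 0.69 ± 0.17 and Foxo3, a transcription factor that activates Bcl2l11, one of 1.25 ± 0.32, each with an adjusted p of 0.139 in edgeR, and both were called by DESeq2 (0.00971 and 0.00226). Of 12 p53 target genes of growth arrest and feedback, 1 was called for element loss, against 11.9% of all genes. It was Perp (2.17 ± 0.49, edgeR adjusted p 0.0159), with 12.9 ± 6.58 CPM without the element and 3.33 ± 2.09 CPM with it. For the transgene none was called, and 4 of the 12 stood at an unadjusted p under 0.05, against 16.3% of all genes. The Perp call ended with limma-voom (0.0647) and without double-mutant library 1 (0.0509).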

How the data were processed

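RNA of sorted Flk2-negative Lin-Sca-1+Kit+ cells was extracted, enriched for mRNA and sequenced in paired ends on a BGISEQ-500, per the labels' protocols. FastQC, Salmon and DESeq2 and the builds mm10 and GRCm38 stand in the submitters' processing notes, without versions. Per the file headers, the deposited files hold the authors' estimated counts per transcript from Salmon, not normalized, and TPM. Of these estimated counts as deposited, 35.3% were not whole. Of 116248 transcripts 115995 matched GENCODE M21; their counts were summed per gene and rounded, and the 253 others were left out. The filter was filterByExpr with a count of 10 and a total of 15, which left 15012 genes. They were tested with edgeR 4.0.16 (R 4.3.3, TMM scaling, quasi-likelihood, 1 mean per genotype over 12 libraries, 8 contrasts, Benjamini-Hochberg over all genes, threshold 0.05). The code was checked on simulated data with changes larger than those given for the members. Success was required only at a smaller spread than that of these data. The check therefore does not show that changes of the members' size would be found. P-values measure the spread between the mice of a genotype. CPM are TMM-scaled counts, SD is over libraries, and intervals come from the model. Alternatives used limma 3.58.1 and DESeq2 1.42.0; tables and figures used Python 3.11.15. The members and all gene lists were chosen with earlier results of these data known. The text names all members, any other family gene, and up to 4 called genes of each other list by smallest p; exceptions are marked. Some results for genes of the lists are not reported here.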

Additional observations from a re-analysis of the deposited data

How the results depend on the processing

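The number of members called for element loss was 0 as reported and 1 with relative log expression factors, with DESeq2, with a block by run of mouse numbers and with immunoglobulin genes left out (Mcl1 each time), and 0 to 1 with single libraries left out (Mcl1 without Wild-type 3 or Pu.1-URE-/- 2, Bcl2l1 without double-mutant library 2). In the settings that called a member for element loss, 7.9% to 20.1% of all genes were called. For the transgene it was 0, 2 with DESeq2 (Bcl2 and Bcl2l11, with 6.77% of all genes called), and 0 to 1 with single libraries left out (Bcl2 without Mdmx-Tg 3, with 2.85% of all genes called). For Pu.1-URE-/- against Wild-type it was 0, and 1 with DESeq2 and with only the genotypes compared (Bcl2l1, with 12.5% and 7.45% of all genes called). In the 5 other contrasts it stayed at 0 under every alternative run. The replicate block left 0 members called in every contrast, but same-numbered libraries did not deviate together (correlations of -0.153 to 0.086), so the numbers do not pair the mice. Among the 7 members with reads in every library, for the contrasts recomputed (element loss, the transgene and the pairs named for a member), the log2 changes whose sign turned were those of Bid, Bcl2, Bak1 and Bcl2l11 for element loss, and the cause was not tested. The interaction of single members and the changes of Bmf, Bcl2a1b and Bcl2a1d were not followed in this way. Bid (0.019) was at -0.0234 with relative log expression factors and with DESeq2, -0.00996 with a transcript length offset, -0.0195 with Y-linked expression as a covariate, -0.0325 without immunoglobulin genes, -0.0500 with Wild-type 1, Mdmx-Tg 2 and double-mutant library 3 left out together, and -0.07445 to 0.0677 with single libraries left out. Bcl2 (-0.00254) was at 0.0260 with limma-voom, 0.00104 without a filter, 0.00126 with the replicate block, 0.0602 with those 3 libraries left out, and -0.177 to 0.143 with single libraries left out. Bak1 (0.0097) was at -0.0308 with relative log expression factors, -0.0313 with DESeq2, -0.0196 with the length offset, -0.0455 without immunoglobulin genes, -0.0960 with the 3 libraries left out, and -0.264 to 0.735 with single libraries left out. Bcl2l11 (0.257) was at -0.1115 to 0.439 with single libraries left out, the lowest without double-mutant library 1. Depth limits Bak1, Bmf and the Bcl2a1 copies, which had at most 301 reads per library.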
